A study of Mus musculus with 10 samples.

Results

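The initiator and effector caspases, the adaptor Apaf1 and the inhibitors of apoptosis were followed in the testes of male mice whose mothers had, or had not, been underfed in pregnancy. They comprise 8 genes, Casp2, Casp6, Casp8, Casp9, Apaf1, Xiap, Birc2 and Birc3, out of 23505 gene symbols named on the array, and were chosen by name. A gene was measured by every non-control probe whose transcript accession belongs to it, which gave 11 probes. The brightest probe stood for a gene. Of the 8 genes, 7 had a probe bright enough to be tested, among 16789 genes tested in all, and the fit left Apaf1 out.

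Caspases are cysteine proteases that cut proteins after aspartate. Initiator caspases are switched on in large complexes, the apoptosome around Apaf1 for caspase-9 and the death receptor complex for caspase-8, and then cut effector caspases, which dismantle the cell. Inhibitors of apoptosis bind caspases or their signalling complexes through BIR domains and can tag them with ubiquitin. In the testis, apoptosis removes many germ cells in normal spermatogenesis.

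All animals were male C57BL/6N mice, killed at 6 weeks of age, and each array held RNA of single testes, labelled with Cy3. The 5 C offspring were born to dams that ate chow freely through pregnancy, and their own mothers raised them. The 5 R offspring were born to dams fed 50% of what control dams ate on average per day, starting at 6.5 days post coitum, and unrelated control dams nursed them. Both groups ate chow freely after weaning, so restriction before birth and fostering cannot be told apart. No source used here says which males were littermates, and p-values therefore measure the spread between these samples only.

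The arrays lay on 2 slides, and replicate numbers follow the order of deposit and pair no samples. Slide 1 carried 2 C and 4 R arrays, and slide 2 carried 3 C and 1 R array. The share of spots flagged as well above background was 56.6% to 67.4%, saturation was found on 0 spots, and 5 arrays a group limit the precision. C replicate 2 stood apart, with a median correlation of 0.959 with the other arrays against 0.982 to 0.988 for the rest, and 6 of the 8 genes had their highest value of all 10 arrays there. In the authors' deposited table, R replicate 1 was averaged on the control side and C replicate 5 on the test side, against their labels; the labels were followed here. With the table's grouping limma called 0 of the 7 genes, 2 had an unadjusted p under 0.05, and adjusted p ran from 0.461 to 0.784. Of all 16789 genes tested, limma also called 0 with that grouping. Among them 865 were lower and 471 higher at an unadjusted p under 0.05. Checked against markers, the label of testis held: the 6 spermatid markers (Acrv1, Tnp1, Tnp2, Prm1, Prm2 and Odf1) all passed the background filter, and all 5 epididymis markers were at background on every array.

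Levels are log2 of the scanner's processed signal relative to the 75th percentile of the same array, so a level of 0 is that percentile, and levels of different probes cannot be compared. Differences are R minus C on that scale, and a fold is that difference on the linear scale. A gene was called when limma's p, adjusted over all 33851 probes tested by the Benjamini-Hochberg method, was under 0.05. In whole tissue, fewer cells of a type and less RNA per cell cannot be told apart.

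Casp2, Casp6, Casp8 and Xiap were lower in R testes, and Casp9, Birc2 and Birc3 were not called. Thus 4 of 7 genes were lower and 0 were higher (also 4 and 0 at an unadjusted p under 0.05), where 20.6% of all genes tested were lower and 15% higher. The 4 genes that were lower were 1.37-fold to 1.95-fold lower. The median difference of the 7 genes was −0.45, where that of all genes was −0.03. With each array's median in place of its 75th percentile, these medians were −0.66 and −0.23, and the split of all calls went from 3462 lower and 2517 higher to 6262 lower and 916 higher. Under that reference too, 4 of the 7 genes were lower and 0 higher.

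Of the 7 genes, 3 had every R array below every C array (Casp2, Casp6 and Xiap), where 16.5% of all genes had, and 0 had every R array above, where 12.6% had. The study's fold cut-offs, a fold above 1.5 or a ratio under 0.66, were added here to limma's call with arrays grouped by label. Casp6 and Xiap met both, as did 5.67% of all genes in that direction. In the other direction 0 of the 7 met both, where 4.25% of genes did. In the authors' own table, under its own grouping, every listed probe has a q of 0.515. Within slide 1 the median difference of the 7 genes was −0.66, and within slide 2, with a single R array, it was −0.10.

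The promoters of the 4 genes that were lower are shown as RefSeq gives them (GRCm38.p6, 250 bases before to 50 after the start) to set side by side what lies at the starts of genes whose signal was lower. Capitals mark matches, on either strand, to the GC box GGGCGG, the CCAAT box CCAAT, the TATA box TATAAA, the ETS motif CCGGAAG, the NRF1 motif, the CRE motif TGACGTCA and the E-box CACGTG. Of these motifs none contains another. All 4 lie on the plus strand.
Casp2, chr6:42264735-42265034: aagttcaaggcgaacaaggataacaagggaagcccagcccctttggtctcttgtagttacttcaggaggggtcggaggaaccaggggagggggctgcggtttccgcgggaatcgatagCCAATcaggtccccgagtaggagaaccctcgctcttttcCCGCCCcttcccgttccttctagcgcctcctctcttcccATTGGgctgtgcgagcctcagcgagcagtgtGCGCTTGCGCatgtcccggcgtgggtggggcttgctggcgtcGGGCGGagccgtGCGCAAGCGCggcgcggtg
Casp6, chr3:129901165-129901464: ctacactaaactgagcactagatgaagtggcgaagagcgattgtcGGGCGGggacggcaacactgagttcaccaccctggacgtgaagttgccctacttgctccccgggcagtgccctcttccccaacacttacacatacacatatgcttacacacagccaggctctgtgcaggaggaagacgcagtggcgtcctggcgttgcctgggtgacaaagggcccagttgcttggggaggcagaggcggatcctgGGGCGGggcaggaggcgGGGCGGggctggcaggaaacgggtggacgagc
Casp8, chr1:58802252-58802551: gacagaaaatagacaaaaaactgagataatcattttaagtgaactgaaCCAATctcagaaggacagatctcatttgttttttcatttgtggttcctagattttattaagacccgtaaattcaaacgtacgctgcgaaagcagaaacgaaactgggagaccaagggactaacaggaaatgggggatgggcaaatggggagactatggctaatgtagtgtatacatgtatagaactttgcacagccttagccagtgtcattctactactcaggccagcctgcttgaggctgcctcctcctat
Xiap, chrX:42067586-42067885: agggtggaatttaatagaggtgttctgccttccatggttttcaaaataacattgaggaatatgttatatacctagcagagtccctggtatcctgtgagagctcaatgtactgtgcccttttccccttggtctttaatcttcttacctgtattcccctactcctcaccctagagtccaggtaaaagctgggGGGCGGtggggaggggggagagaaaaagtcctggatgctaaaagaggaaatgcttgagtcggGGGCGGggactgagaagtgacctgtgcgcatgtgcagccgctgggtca

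The 4 windows do not have any motif of the search in common. The GC box matched 2 times in Casp2, 3 times in Casp6 and 2 times in Xiap, and did not match in Casp8; 35.7% of 32851 promoters of this length hold it. The CCAAT box matched 2 times in Casp2 and 1 time in Casp8, where 37.4% of promoters hold it. The NRF1 motif matched 2 times in Casp2, where 4.60% of promoters hold it. Casp2 had 26 CpG dinucleotides and Casp6 had 16, against a median of 7 over all promoters, while Casp8 and this window of Xiap had 5 each. Xiap has 3 windows in the table, of which the most upstream is shown. The middle window had 20 CpG dinucleotides and 2 GC boxes, the most downstream had 2 CpG dinucleotides, a TATA box and no GC box, and which start the array's probe reads was not tested. A match describes letters only.

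Caspase-2, an initiator caspase activated in a complex with Pidd1 and Cradd, was lower in R testes. The level of Casp2 (chromosome 6, NM_007610) was 0.54, 0.92, 0.29, 0.25 and 0.56 in C replicates 1 to 5 and 0.069, 0.14, −0.059, 0.12 and 0.014 in R replicates 1 to 5. All 5 R arrays lay below the lowest C array, and the C arrays were the more spread. The means were 0.51 ± 0.27 (SD, n = 5) and 0.057 ± 0.081 (SD, n = 5), a 1.37-fold lower signal in R (95% interval 1.14 to 1.65; log2 difference −0.45, SE 0.12, adjusted p = 0.0169 by limma). It was −0.66 within slide 1 and −0.35 within slide 2. Without R replicate 1 and C replicate 5, which the authors' table groups otherwise, the adjusted p was 0.0707 and the difference −0.44.

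Caspase-8, the initiator caspase of death receptors, was also lower, less evenly across slides. The level of Casp8 (chromosome 1, NM_009812) was −2.62, −2.48, −3.04, −2.98 and −3.11 in C replicates 1 to 5. In R replicates 1 to 5 it was −3.36, −3.30, −3.49, −3.42 and −3.06. R replicate 5 lay among the C arrays of its own slide, and the other 4 R arrays lay below all C arrays. The means were −2.84 ± 0.28 (SD, n = 5) and −3.32 ± 0.17 (SD, n = 5), which is 1.39-fold lower in R (95% interval 1.13 to 1.72; log2 difference −0.48, SE 0.14, adjusted p = 0.0221 by limma). The difference was −0.84 within slide 1 and −0.013 within slide 2. The call was lost without R replicate 3 (adjusted p = 0.0510), without R replicate 4 (0.0519) and with no filter on dim probes (0.0511).

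Caspase-9, the initiator caspase of the mitochondrial route, did not pass the test. The level of Casp9 (chromosome 4, NM_015733) was 0.28, 0.68, 0.094, 0.18 and 0.23 in C replicates 1 to 5 and 0.25, 0.23, 0.18, 0.27 and 0.066 in R replicates 1 to 5. The groups overlapped, and C replicate 2 was the highest array. The log2 difference was −0.092 (95% interval −0.33 to 0.15, adjusted p = 0.510 by limma), and 0.0065 without C replicate 2. It was −0.25 within slide 1 and −0.10 within slide 2. A second probe of Casp9 was well above background on 1 C and 2 R arrays and was not tested.

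Apaf1 binds cytochrome c and assembles the apoptosome in which caspase-9 becomes active. Its brighter probe (chromosome 10, NM_001042558) read −4.73, −4.74, −4.83, −5.28 and −4.91 in C replicates 1 to 5 and −6.07, −5.74, −5.91, −6.08 and −4.86 in R replicates 1 to 5. Its signal cleared the background (the scanner's flag for well above background) on 2 C arrays and on 0 R arrays, so its values are near the detection limit. The measured means were −4.90 in C and −5.73 in R. Since most C arrays were not well above background either, no smallest fold can be given. R replicate 5 lay among the C arrays, and within slide 2 the measured difference was 0.15. The dimmer probe was well above background on 1 R array only, and no fold is given for it.

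**Figure D1:**
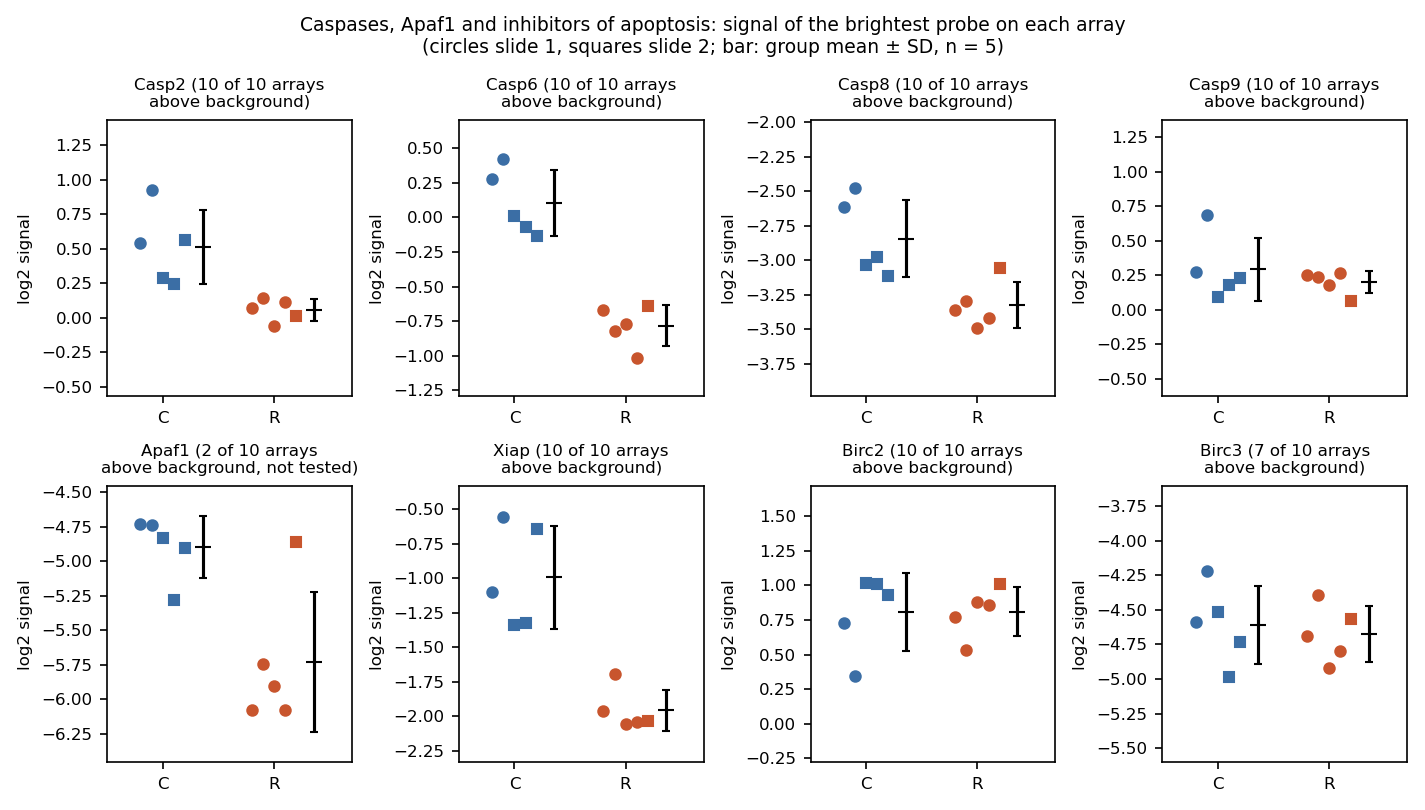
Level of the brightest probe of each of the 8 genes (log2 signal relative to the array's 75th percentile, each panel spanning the same range of log2 units) on the 5 C and 5 R arrays; circles are slide 1, squares slide 2, and bars show the group mean ± SD (n = 5). Every R array lies below every C array for Casp2, Casp6 and Xiap, while the groups overlap for Casp8, Casp9, Apaf1, Birc2 and Birc3.

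Caspase-6, an effector caspase that cuts nuclear lamins, was lower with no overlap of groups. The level of Casp6 (chromosome 3, NM_009811) was 0.27, 0.43, 0.011, −0.069 and −0.14 in C replicates 1 to 5 and −0.67, −0.82, −0.77, −1.02 and −0.64 in R replicates 1 to 5. The gap between the lowest C array and the highest R array was 0.51. The means were 0.10 ± 0.24 (SD, n = 5) and −0.78 ± 0.15 (SD, n = 5), a 1.85-fold lower signal in R (95% interval 1.53 to 2.23; log2 difference −0.89, SE 0.12, adjusted p = 0.00159 by limma). It was −1.17 within slide 1 and −0.58 within slide 2. Casp6 is the one gene of the 8 in the authors' deposited table, which gives it a log2 ratio of −0.64, a p of 0.0191 and a q of 0.515 under the table's own grouping.

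XIAP, which binds and blocks caspase-9, had the largest difference of the 7 genes tested over all 10 arrays. The level of Xiap (X chromosome, NM_001301639) was −1.10, −0.56, −1.34, −1.33 and −0.64 in C replicates 1 to 5. In R replicates 1 to 5 it was −1.96, −1.69, −2.06, −2.04 and −2.03. The R arrays lay close together, all below the C arrays, and C replicates 2 and 5 were the highest. The means were −0.99 ± 0.37 (SD, n = 5) and −1.96 ± 0.15 (SD, n = 5), which is 1.95-fold lower in R (95% interval 1.51 to 2.52; log2 difference −0.96, SE 0.17, adjusted p = 0.00326 by limma). The difference was −1.11 within slide 1 and −0.93 within slide 2. A second probe of Xiap, for NM_009688, was well above background on 2 C and 1 R arrays and was not tested. Its measured difference was −0.87.

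Birc2 encodes cIAP1, a ubiquitin ligase of tumour necrosis factor receptor signalling, and it did not pass the test. Its level (chromosome 9, NM_007465) was 0.73, 0.35, 1.02, 1.01 and 0.93 in C replicates 1 to 5 and 0.77, 0.53, 0.88, 0.86 and 1.01 in R replicates 1 to 5. The groups overlapped, and C replicate 2, the highest array for 6 of the genes, was the lowest of all for this one. The log2 difference was 0.0028 (95% interval −0.31 to 0.32, adjusted p = 0.989 by limma), and its sign changed with the reference, to −0.20 with the array median (adjusted p = 0.162). It was 0.22 within slide 1 and 0.025 within slide 2.

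Birc3 encodes cIAP2, a close relative of cIAP1, and lies beside Birc2 on chromosome 9. Its level (NM_007464) was −4.59, −4.22, −4.51, −4.99 and −4.74 in C replicates 1 to 5 and −4.69, −4.40, −4.92, −4.80 and −4.56 in R replicates 1 to 5. The groups overlapped, and only 4 C and 3 R arrays were well above background. The log2 difference was −0.065 (95% interval −0.39 to 0.26, adjusted p = 0.740 by limma), −0.30 within slide 1 and 0.18 within slide 2. The gene table lists each of these genes under a former name of the other, so both were matched by accession.

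**Figure D2:**
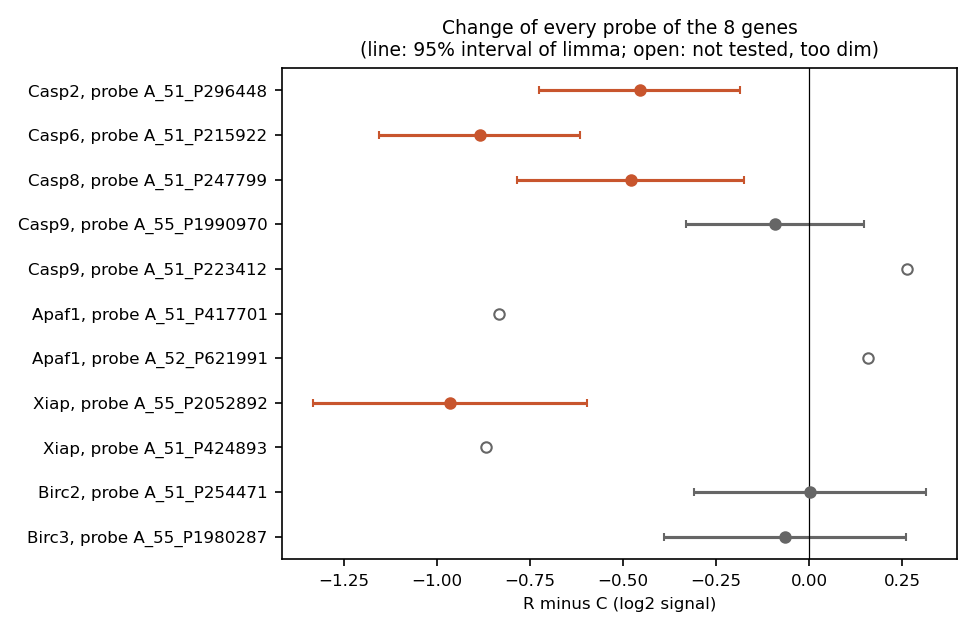
Difference R minus C (log2 signal) of all 11 probes of the 8 genes; lines are 95% intervals from limma, orange marks probes called lower, and open circles mark probes too dim to test. The intervals of Casp2, Casp6, Casp8 and Xiap lie below 0, and those of Casp9, Birc2 and Birc3 cross it.

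The genes with the most similar pattern over the 10 arrays, by Pearson's r among 16788 genes, are given as a description, since the points share arrays, slides and C replicate 2. They were Crlf3 (r = 0.997) and Rnf149 (0.995) for Casp2, and Tmbim6 (0.997) and Shmt1 (0.994) for Casp6. For Xiap they were Bmpr1a (0.995) and Mob4 (0.993), and for Casp8 B4galt3 and Slc41a2 (both 0.979). For Casp9 they were Traip (0.966) and Nhp2 (0.962), but without one array these r values fell as low as 0.828 and 0.824. For Birc2 they were Clca3a2 (0.991) and Slc30a3 (0.988), and for Birc3 Cntnap1 (0.941) and Epn3 (0.923). Such values are common here, and the gene at rank 100 still had an r of 0.979 for Casp2 and 0.969 for Xiap.

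Of 54 other genes that act with the caspases and their inhibitors, 43 were tested, 12 were lower, 2 were higher (5 with the slide as a block) and 29 were not called. The called share was 32.6%, where 35.6% of all genes were called, and the median difference was −0.13. Of 4 other caspases, 1 was tested and limma called 0, with 1 higher at an unadjusted p under 0.05. That gene, Casp1, which processes interleukin-1 beta, differed by 0.55 (adjusted p = 0.0862 by limma). With the slide as a block it was called higher (0.75, adjusted p = 0.0205), and it was 1.02 within slide 1 and 0.25 within slide 2.

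Of the other inhibitors, 3 of 7 were tested and Naip5, which senses flagellin, was 1.34-fold higher (adjusted p = 0.0235 by limma). Naip5 has close copies whose RNA its probe may share. The brightest probes of Naip1, Naip2 and Naip6 cleared the background on 1, 4 and 0 arrays and were not tested. These copies were named after their values were seen. A second probe of Naip5 was not tested either. The call of Naip5 was lost with the array median as reference (adjusted p = 0.0716) and without R replicate 1 (0.0574). Birc5, the mitotic protein survivin, differed by 0.11 (adjusted p = 0.120), with a sign that turned to −0.10 under that reference. Birc6, a giant ubiquitin ligase, differed by 0.30 at its brightest probe (adjusted p = 0.0651). Of its other 3 probes, 2 were called higher (0.69 and 0.39) and 1 read −0.03.

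Of the 9 antagonists of these inhibitors and mitochondrial death proteins, all tested, 4 were lower and 0 higher (4 and 1 at an unadjusted p under 0.05). The lower share was 44.4%, where 20.6% of all genes tested were lower and 15% higher. Cycs, somatic cytochrome c, was 1.58-fold lower (adjusted p = 0.00576 by limma) and its other probe 1.81-fold lower. Cyct, the testis form of cytochrome c, was 1.28-fold lower (adjusted p = 0.0224), a call lost without R replicate 1 (0.0529). Under the 13 alternatives other than leaving out an array, the difference of Cyct ran from −0.56 to −0.11, and the call held in 8. Aifm1, a mitochondrial flavoprotein, was 1.62-fold lower (adjusted p = 0.00795), and Endog, a mitochondrial nuclease, was 1.60-fold lower (adjusted p = 0.00799). Diablo, which displaces XIAP from caspases, differed by −0.076 (adjusted p = 0.408) at its brightest probe, and its other probe was called lower, at −0.38. Htra2, named after its values were seen, was not called at its brightest probe (−0.17, adjusted p = 0.101 by limma). Its other 2 probes were called lower (−0.28 and −0.30).

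Among death receptors and ligands, 6 of 10 were tested, 2 were lower and 0 higher (2 and 0 unadjusted). The lower share was 33.3%, where 20.6% of all genes tested were lower and 15% higher. Fas, a death receptor upstream of caspase-8, was called lower (log2 difference −1.02, adjusted p = 0.0129 by limma), but it cleared the background on 4 C and 1 R arrays, so the size of its difference is not measured well. With normexp background correction it was −0.35, and without both regrouped arrays the adjusted p was 0.0614. Tnfrsf1a, a receptor for tumour necrosis factor, was 1.51-fold lower (adjusted p = 0.0285), with a second probe not called (−0.16), and the call was lost without any 1 of 5 arrays (R replicates 1, 3, 4 and 5 and C replicate 1; adjusted p 0.0565 to 0.0606). Fasl, the ligand of Fas, differed by 0.36 (adjusted p = 0.246). Tnfrsf21 differed by −0.29 (adjusted p = 0.209), and its other probe was called lower (−1.14), with 2 of 5 R arrays above background.

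All 14 adaptors and signalling partners were tested, and 3 were lower and 0 higher (5 and 0 unadjusted). The lower share was 21.4%, near the 20.6% of all genes tested that were lower, where 15% were higher. Traf3, which works with cIAP1 and cIAP2, was 1.43-fold lower (adjusted p = 0.00440 by limma), Faim, an inhibitor of Fas signalling, was 1.42-fold lower (0.00428), and Ripk1, a kinase of the death receptor complex, was 1.22-fold lower (0.0248). The other probe of Ripk1 read 0.077, and the call was lost without R replicate 1, R replicate 2 or C replicate 1 (adjusted p 0.0528 to 0.0570). Cflar, which restrains caspase-8, differed by −0.14 (adjusted p = 0.448). The counts of this list rest on brightest probes. Other probes of Cyld (0.50, adjusted p = 0.00395 by limma) and Map3k14 (0.95, 0.0138) were called higher, and that of Traf3 lower (−0.48). The brightest probes of Cyld and Map3k14 were not called (0.13 and 0.14), and the remaining probe of Cyld read −0.082. Both genes were named after their values were seen.

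All 10 caspase substrates were tested, and by brightest probes 3 were lower and 1 higher. Their called share was 40%, where 35.6% of all genes tested were called. Other probes of Rock1 (0.47, adjusted p = 0.00426 by limma) and Sptan1 (0.62, 0.00280) were called higher, and that of Dffa lower (−0.27). The brightest probes of Rock1, Sptan1 and Dffa were not called (−0.23, 0.13 and −0.52), and the remaining probe of Rock1 read −0.080. These genes were named after their values were seen. Acin1, a nuclear protein of chromatin condensation, was 1.39-fold higher (adjusted p = 0.00317 by limma), and all 3 of its probes were called higher. Parp1, a DNA repair enzyme, was 1.14-fold lower (adjusted p = 0.0373). Gsn, the actin-severing protein gelsolin, was 1.42-fold lower (adjusted p = 0.0421). Leaving out C replicate 1, 3 or 4 or R replicate 1, 2 or 4 ended the call of Parp1 (adjusted p up to 0.0863). Leaving out any array but C replicate 3 or R replicate 2 ended that of Gsn (up to 0.0916). The third substrate that was lower, Dffb, the caspase-activated DNase, was named after its value was seen. It cleared the background on 5 C and 2 R arrays. Its log2 difference was −0.37 (adjusted p = 0.0485 by limma). The call was lost when any array but C replicate 2 or R replicate 1 was left out (up to 0.1002). It held in only 3 of the 12 other alternatives. Those that lost it included the slide as a block (0.0975) and normexp background correction (difference −0.16).

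**Figure D3:**
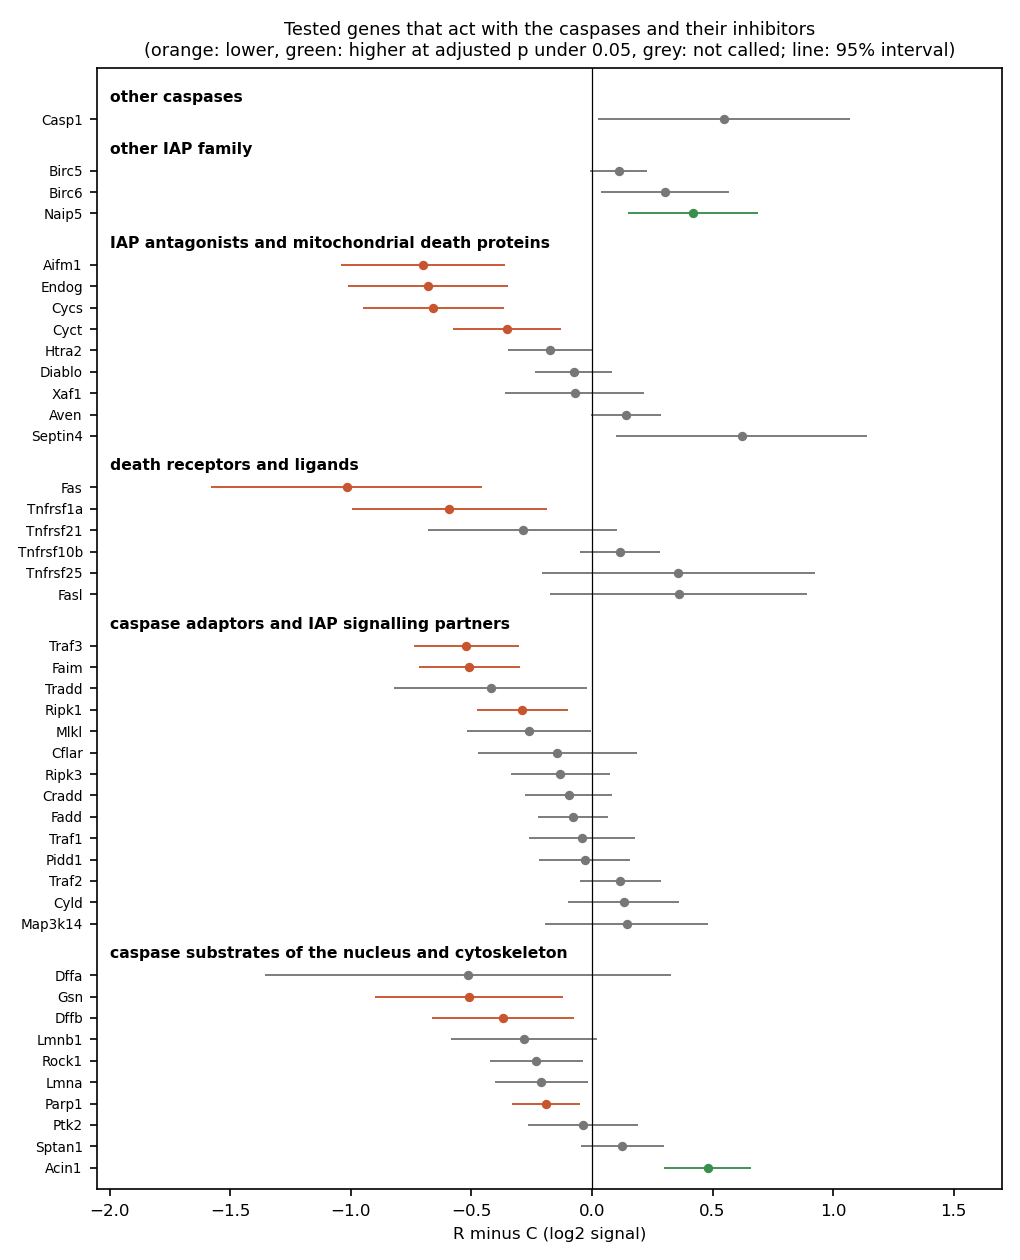
Difference R minus C (log2 signal) of the 43 tested genes that act with the caspases and their inhibitors, by list; lines are 95% intervals from limma, orange marks genes called lower, green higher and grey not called. Of the 9 mitochondrial proteins and antagonists 4 are orange, and Acin1 and Naip5 are the 2 green points.

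Markers of the cell types of the testis also differed between groups, and their part in the differences above was not tested. Over all genes tested, 20.6% were lower and 15% higher. Of 5 Sertoli cell markers tested, 4 were lower, and their summed linear level, with Amh not well above background on any array, was 125 to 190 on C arrays and 102 to 119 on R arrays. Such a sum is carried by its brightest probe, here Clu, and for spermatocytes Ldhc. Of 8 markers of macrophages and other leukocytes, 5 were lower, with sums of 3.44 to 5.64 and 2.33 to 3.77. Among these 5, Ptprc cleared the background on only 4 C and 1 R arrays, and Adgre1 was near the threshold (adjusted p = 0.0499 by limma). Of 5 spermatogonial markers, 2 were lower and 1 higher (6.66 to 10.04 and 4.43 to 5.19), and of 6 spermatocyte markers 3 were lower (205 to 244 and 206 to 221). The latter 3 were Sycp3, Sycp1 and Hormad1, with log2 differences of −0.66, −0.63 and −0.97. Of 6 spermatid markers 1 was lower (948 to 1140 and 989 to 1129), and of 5 Leydig cell markers 2 were lower (19.1 to 34.9 and 14.4 to 19.2). Of 5 endothelial markers, 2 were higher (1.48 to 2.19 and 2.41 to 2.83). Of 3 lymphocyte and 5 adipocyte markers tested limma called 0, with 1 of each list higher at an unadjusted p under 0.05, and sums of 0.441 to 0.605 and 0.450 to 0.640, and of 1.77 to 8.17 and 2.88 to 12.3. The median difference of the adipocyte markers was 2.11, with Cfd at 3.03, Car3 at 2.42 (adjusted p = 0.05002) and Fabp4 at 2.11, while Adipoq was at −0.25 and Plin1 at −0.14. Their groups overlapped. C replicate 2 had the highest C value of Cfd, Car3 and Fabp4, and R replicate 2 had the highest value of all arrays (2.86, 0.69 and 0.50). Cd3g, Cd79a and Nkg7 were at background on every array.

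**Figure D4:**
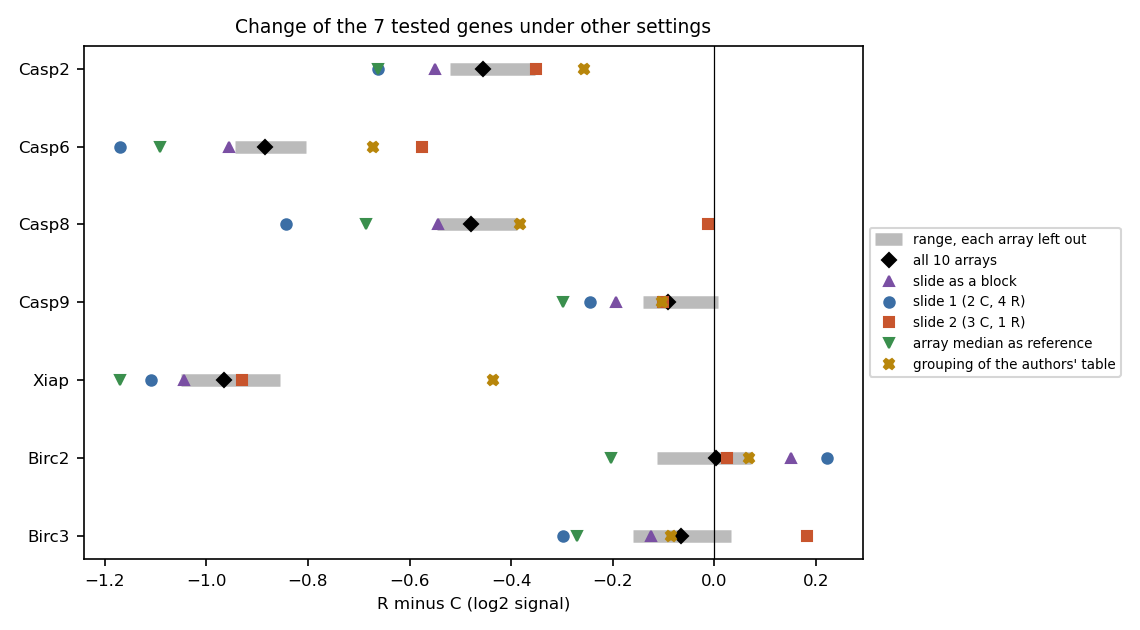
Difference R minus C (log2 signal) of the 7 tested genes over all 10 arrays (diamonds), with grey bars for the range when each array is left out and other symbols for the slide as a block, each slide alone, the array median as reference and the grouping of the authors' table. All symbols of Casp2, Casp6, Casp8 and Xiap lie below 0, that of Casp8 on slide 2 at −0.013, and those of Birc2 and Birc3 lie on both sides of 0.

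Under the 23 alternatives, the differences of Casp2, Casp6, Casp8 and Xiap all kept their sign. Casp6 and Xiap were each called in 21 of them, all but slide 2 alone and the authors' table's grouping, Casp2 in 20 and Casp8 in 18. With the slide as a block in the fit, the differences were −0.55 for Casp2, −0.96 for Casp6, −0.54 for Casp8 and −1.04 for Xiap, and all 4 were called. Without C replicate 2, they were −0.35, −0.80, −0.39 and −0.86 in the same order, and all 4 were called.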

How the data were processed

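Testis RNA of 5 C and 5 R offspring was hybridised to 10 single-colour mouse 8x60K arrays, one per animal. The authors deposited, per array, scanner intensity values from Agilent Feature Extraction 12.0.3.1, per the file headers (build mm9), without replicate numbers in the labels. They also deposited a table of 2266 probes with log2 ratios, p-values and q-values; its log2 values equal means over arrays of which R replicate 1 and C replicate 5 sit opposite to their labels, and 10 of its per-sample columns were not used.

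The processed intensity was log2 transformed, and each array's 75th percentile over its 59305 non-control spots (56605 probes) was subtracted. Spots of a probe were averaged without those flagged as outliers. Probes were tested where at least 5 of 10 arrays had them well above background (33853, of which 2 were dropped for a missing value) with limma 3.58.1 in R 4.3.3, all 10 arrays in the fit, no covariate, p-values two-sided and adjusted over all probes; the script was tested on simulated data. Names came from transcript accessions in RefSeq's gene table (33767 probes) or the deposited symbol (184 probes). Array files give no depth; detection over background limits them. The 8 genes and all lists were chosen with earlier results of these data known. Named beside the 8 genes were 8 genes set by name, up to 3 genes of smallest p per list, and the 2 genes most like each. Genes named after their values were seen are marked as such. Alternatives covered background correction, normalisation, filter, probe choice, array weights, trended variance, slide, grouping and each array left out. The normexp alternative used median spot signals. Protein sequences and gene coordinates were not used here, and some listed genes are not reported here.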

Additional observations from a re-analysis of the deposited data

Results flagged for a closer look

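Within each group of 5 arrays, the highest and the lowest value of a probe were set against the rest, in 62 groups. Covered were every probe of the 8 genes and the brightest probe of each other gene the rule named. Genes named after their values were seen, such as Dffb, were left out. In 6 groups the gap to the nearest array was over 0.71 of the group's whole range; chance alone marks about 1 in 20 groups.

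Among the 8 genes, the brighter Apaf1 probe read −4.86 in R replicate 5, above the other R arrays; none of the 5 R arrays was well above background for it. Xiap read −1.69 in R replicate 2, above the other R arrays and still below every C array.

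Among the genes that act with them, Birc6 read −1.28 in R replicate 5, below the others. Cflar read −1.40 and Tnfrsf1a read 0.51 in R replicate 2, both above the other R arrays. Naip5 read 4.12 in C replicate 2, below the other C arrays.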

How the results depend on the processing

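The number of all genes that were lower moved with the setting, from 3462 as reported to 6262 with the array median. Equal counts below therefore stand beside unlike shares of all genes. Of the 7 genes, 4 were lower and 0 higher with normexp background correction, the array median, quantile normalisation and detection on all arrays. The same counts came with the mean of probes, array weights, trended variance, the slide as a block and slide 1 alone. Birc3 dropped out with detection on all arrays. With no filter the count was also 4, but it held Apaf1, whose R arrays were all at background, and not Casp8 (adjusted p = 0.0511). Leaving out each array gave 3 to 4 lower. Slide 2 alone (3 C, 1 R) and the authors' table's grouping each gave 0 lower by limma, with 2 at an unadjusted p under 0.05 each.

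Among the genes not called, signs turned. Casp9 was 0.044 with array weights and 0.0065 without C replicate 2 (each array left out, −0.14 to 0.0065). Birc2 was −0.20 with the array median and −0.15 with array weights; leaving out each array gave −0.11 to 0.072, below 0 without C replicate 1 (−0.0175), C replicate 2 (−0.11), or R replicate 3 (−0.0145), 4 (−0.0086) or 5 (−0.0478). Birc3 was 0.0019 with array weights, 0.18 on slide 2 and 0.033 without C replicate 2 (each array left out, −0.16 to 0.033). Birc5 was −0.096 with the array median and Cflar 0.024 on slide 2.

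Of the other pathway genes, 12 were lower as reported, 21 with the array median, 6 with no filter, 6 without both regrouped arrays, and 7 to 11 when each array was left out (7 without R replicate 1). Those higher went from 2 to 1 with the array median, no filter or both regrouped arrays left out, to 5 with the slide as a block or slide 1 alone, to 6 with the mean of probes, and to 1 to 4 when each array was left out. Slide 2 alone gave 0 and 0 (9 lower and 0 higher unadjusted), as did the table's grouping (3 and 2). Over all genes, 3462 were lower and 2517 higher as reported, 6262 and 916 with the array median, 2262 and 1533 with no filter, 1712 and 971 without both regrouped arrays, and 3856 higher with the slide as a block. Leaving out each array gave 2459 to 3704 lower and 1654 to 2725 higher; slide 2 alone and the table's grouping gave 0 (2121 and 865 lower, 1407 and 471 higher, unadjusted). The causes were not tested. Slide 2 alone has fewer arrays, with a single R array.

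No paired analysis was run, because C and R offspring came from different dams and replicate numbers pair no samples. Litters could not be taken into account, since no source used here says which males were littermates. Dim probes limit Apaf1, Birc3 and the second probes of Casp9 and Xiap.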
